A study of Mus musculus with 6 samples.

Results

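The insulin-like growth factor 1 (IGF1) system was described in mouse liver through 10 genes, chosen by gene name with earlier results of these data known. They were Igf1, its receptor gene Igf1r, the acid-labile subunit gene Igfals, and the genes of the IGF binding proteins, Igfbp1 to Igfbp7. The array carries 15 probes for these genes among 39429 probes that are not controls, with 5 probes for Igf1, 2 for Igfbp2 and 1 for each of the other genes. RNA was taken from tumour-free liver regions of 6 male mice of the inbred strain C57BL/6, aged 5 weeks when the study began. In the restricted group, 3 mice were fed a diet with moderately restricted carbohydrate. In the control group, 3 mice were fed a control diet. All 6 mice also received a transposon vector by hydrodynamic tail vein injection, a rapid large-volume injection that carries DNA into liver cells. The vector encodes human HRAS with the G12V change, a short hairpin RNA against p53 and green fluorescent protein, so both diets were studied in livers carrying the same induced cancer model, and no uninjected liver serves as a baseline. Diet was started 1 week before the injection and lasted 5 weeks according to the sample labels, but these times are 2 weeks and 4 weeks in the series text. That text also adds plant compounds to the diet, which no sample label names. Sample titles call both diets supplemented without saying with what.

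IGF1 is a growth hormone dependent peptide that the liver releases into the blood, where most of it travels bound to a binding protein. The main circulating form is a ternary complex of IGF1, IGFBP3 or IGFBP5 and the acid-labile subunit, which keeps the growth factor in the circulation. IGFBP1 is made by hepatocytes under the control of insulin, which represses its gene, and IGFBP2 is another hepatocyte product known to rise in fasting. The remaining binding proteins are made in many tissues and set how much growth factor reaches the receptor.

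Each mouse gave 1 single-colour array. Values are log2 signals with the 75th percentile of each array subtracted, so that 0 is the level of the probe at that percentile and each step of 1 is a doubling of signal. The 75th percentile lay between 287 and 574 intensity units, and between 23527 and 25816 probes per array were well above background. Precision is limited by the number of arrays, which was 3 for each diet. Slide 1 held the 3 control arrays and restricted mouse 1, and slide 2 held restricted mice 2 and 3. The value on slide 1 given below is therefore restricted mouse 1 minus the mean of the 3 control mice, with the adjusted p of a fit that takes slide as a block. Over all tested probes, arrays of the same diet correlated at 0.975 to 0.988 and arrays of different diets at 0.926 to 0.948.

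Of the 10 genes, 2 rose in mice on the restricted diet and none fell, each gene being counted by its probe with the highest mean signal. Those were Igfbp2, which was 3.20-fold higher, and Igfbp3, which was 4.19-fold higher. The other 8 genes, Igf1 and its receptor among them, did not pass the test (limma's moderated test, Benjamini-Hochberg adjusted p under 0.05 over 24234 probes). Over all 19616 gene names tested, 27.2% passed in either direction and 14.4% rose, so the share of 20% called among the 10 genes lay near that background. All 15 probes were well above background on all 6 arrays, and none was lost to the filter on dim probes. No overlap between restricted and control mice was seen for 3 of the 10 genes, Igfbp2, Igfbp3 and Igfbp7, against 44.8% of all gene names. By probe, 3 of 15 passed the test, against 26.6% of all probes, and 6 of 15 did not overlap, against 44.3%. The median difference of all tested probes was 0.12 on the log2 scale, restricted minus control.

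**Figure D1:**
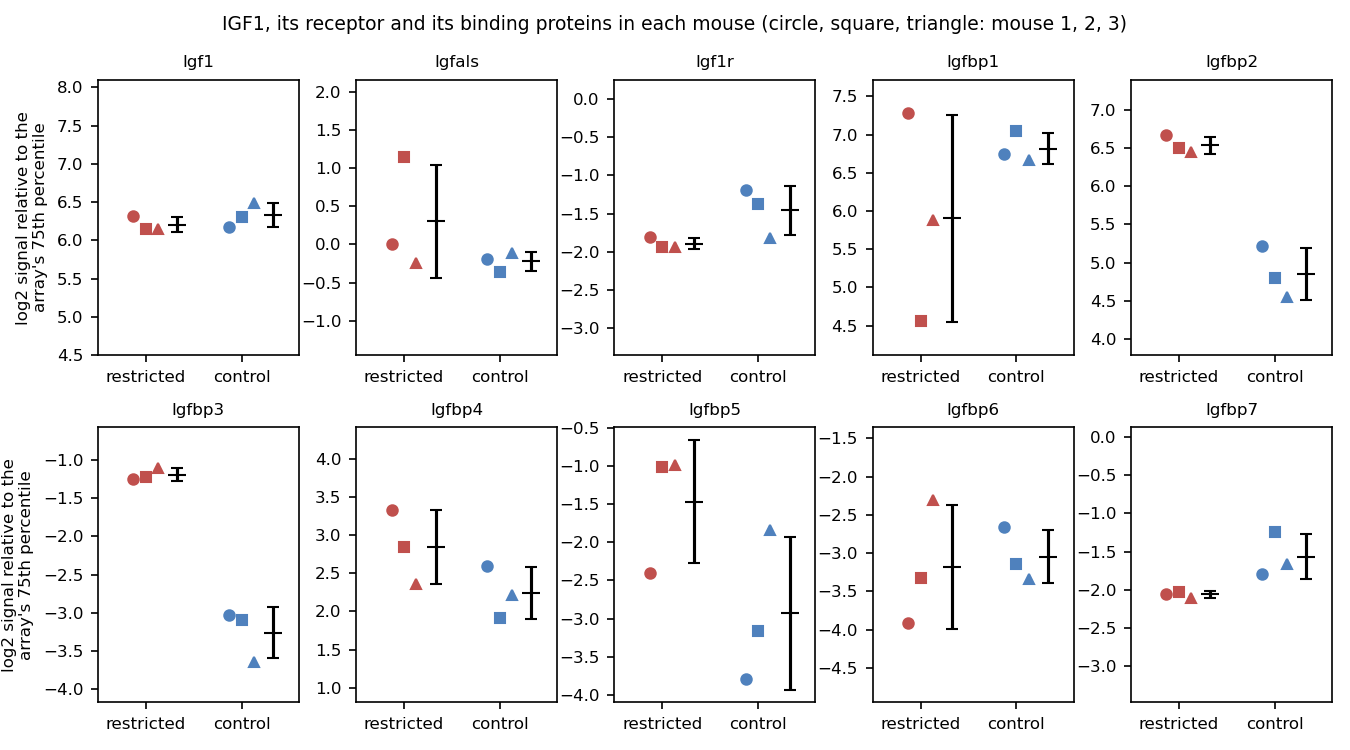
Scaled log2 signal (0 is the 75th percentile of the array) for the probe with the highest mean signal of each of the 10 genes, with restricted mice left and control mice right, a marker per mouse (circle, square and triangle for mice 1, 2 and 3) and bars for the mean and SD of 3 mice. The restricted mice lie above the control mice for Igfbp2 and Igfbp3, and restricted mouse 1 stands at 7.28 (saturated) for Igfbp1 while the other restricted mice stand at 4.57 and 5.88.

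The ligand gene, Igf1, showed no called difference at any of its 5 probes, all on chromosome 10. At the probe with the highest mean signal (A_55_P2031631, transcript variant 1, mm9 chromosome 10, 87393581 to 87393640), restricted mice had 6.31, 6.14 and 6.15, against 6.18, 6.31 and 6.49 in control mice. The ranges overlapped. The means were 6.20 ± 0.10 in restricted mice and 6.33 ± 0.16 in control mice (SD, n = 3 each), a difference of -0.12 ± 0.17 (SE, limma adjusted p = 0.630). The 95% interval of the ratio of restricted to control ran from 0.695 to 1.21. A second variant 1 probe (A_55_P2085984, 87393561 to 87393620) shares 40 bases with the first and is not an independent reading. It measured 5.98 in each of the 3 restricted mice and 5.97, 6.12 and 6.38 in control mice, a difference of -0.18 ± 0.18 (limma adjusted p = 0.495).

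The remaining Igf1 probes gave 2 readings without overlap and 1 in the opposite direction. Probe A_55_P2085974 (87399581 to 87399640) measured 3.48, 3.51 and 3.46 in restricted mice and 3.72, 3.99 and 3.85 in control mice. Every restricted value lay below every control value, yet the difference of -0.37 ± 0.16 did not pass (limma adjusted p = 0.135). With quantile normalization the same probe gave -0.63 with a limma adjusted p of 0.0216, the only one of 17 alternatives in which it passed. Probe A_55_P2031636 (87395924 to 87395983) measured 0.04, 0.03 and 0.20 in restricted mice and 0.24, 0.57 and 1.00 in control mice, a difference of -0.52 ± 0.23 (limma adjusted p = 0.140). These 4 probes all belong to variant 1 and had negative differences. The fifth probe, A_55_P2085979 (87378456 to 87378515), is the one for transcript variant 2. It measured 2.47, 1.84 and 3.10 in restricted mice and 1.63, 2.07 and 2.52 in control mice, overlapping ranges with a difference of 0.39 ± 0.37 (limma adjusted p = 0.466). On slide 1 the differences of the 4 variant 1 probes, in the order given, were -0.01, -0.18, -0.38 and -0.57, and that of the variant 2 probe was 0.39, none of them called. Across the 6 arrays, correlations between Igf1 probes ran from -0.338 to 0.961, lowest between the variant 2 probe and A_55_P2085974.

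**Figure D2:**
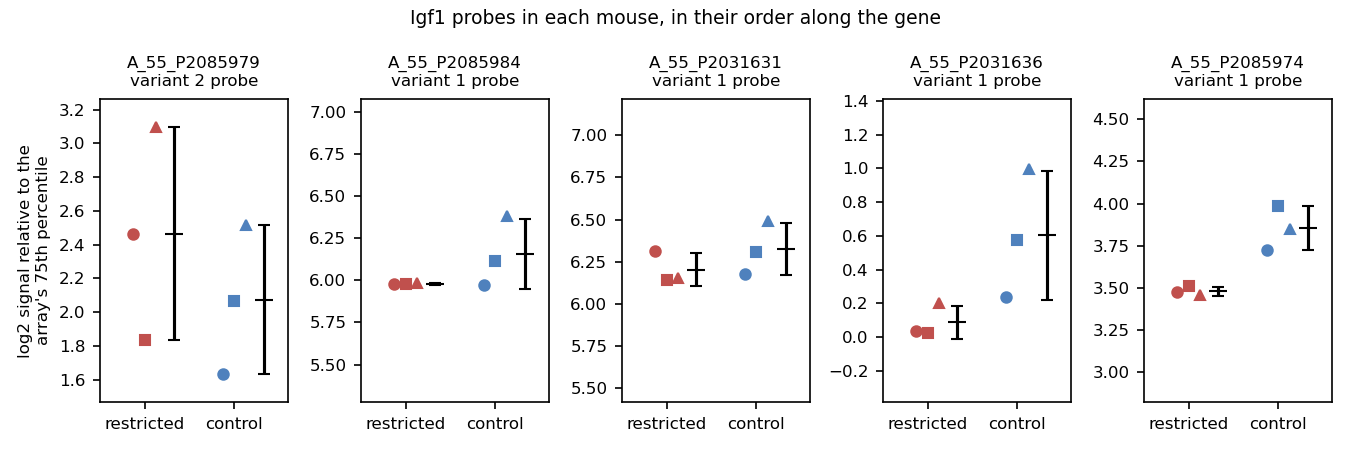
Scaled log2 signal (0 is the 75th percentile of the array) for the 5 Igf1 probes in their order along the gene, with restricted mice left and control mice right, a marker per mouse and bars for the mean and SD of 3 mice. Restricted and control mice are separate at A_55_P2031636 (means 0.09 and 0.60) and A_55_P2085974 (means 3.48 and 3.85), and overlap at the other probes.

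Igfals encodes the acid-labile subunit, the liver protein that closes the ternary complex. Its probe (A_51_P277088, mm9 chromosome 17, 25018251 to 25018310) measured 0.01, 1.14 and -0.25 in restricted mice and -0.20, -0.36 and -0.11 in control mice. Restricted mouse 2 stood apart from the rest, and the ranges overlapped. The difference was 0.52 ± 0.36 (limma adjusted p = 0.323), and on slide 1 it was 0.23 (adjusted p = 0.814). Without restricted mouse 2 it was 0.10 (limma adjusted p = 0.787). Growth hormone acts on Igfals through STAT5 in mouse, and 1 of the 3 RefSeq promoter windows of the gene, each 250 bases before to 50 bases after an annotated start, is shown because it holds a match to the STAT5 palindrome TTCNNNGAA close to the start. It lies at chr17:24877981-24878280 on the plus strand of GRCm38.p6, a later build than that of the probe positions. Capitals mark the palindrome, 58 to 50 bases before the start, and a GC box (GGGCGG), 34 to 29 bases before it. Another Igfals window holds the palindrome 236 to 228 bases before its start. The palindrome occurs on either strand in 8.30% of all 32851 windows of this length and in no other window of the 10 genes.
Igfals: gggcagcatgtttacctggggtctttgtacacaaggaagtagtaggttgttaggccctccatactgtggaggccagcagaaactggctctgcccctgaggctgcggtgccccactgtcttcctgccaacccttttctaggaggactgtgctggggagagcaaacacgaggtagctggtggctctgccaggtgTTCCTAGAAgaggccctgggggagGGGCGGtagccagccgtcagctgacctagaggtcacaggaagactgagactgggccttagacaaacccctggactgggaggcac

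The receptor gene Igf1r did not pass the test, and hepatocytes are known to carry little IGF1 receptor. Its probe (A_66_P105801, mm9 chromosome 7, 75378461 to 75378520) measured -1.81, -1.93 and -1.94 in restricted mice and -1.19, -1.37 and -1.82 in control mice. Control mouse 3 lay within the range of the restricted mice and the other control mice lay above it. The difference was -0.44 ± 0.21 (limma adjusted p = 0.167). Without control mouse 3 it was -0.62 (limma adjusted p = 0.0436), so a single control array decided this call. With array weights it was -0.55 (adjusted p = 0.0273), and on slide 1 it was -0.35 (adjusted p = 0.526).

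Igfbp2 rose on the restricted diet at both of its probes. Probe A_66_P135391 (mm9 chromosome 1, 72898813 to 72898872) measured 6.66, 6.49 and 6.44 in restricted mice, against 5.22, 4.80 and 4.55 in control mice. The lowest restricted value was well above the highest control value, and the groups averaged 6.53 ± 0.12 and 4.85 ± 0.34 in restricted and control mice (SD, n = 3 each). The difference was 1.68 ± 0.22 on the log2 scale, a 3.20-fold higher level with a 95% interval of 2.25 to 4.56 (limma adjusted p = 0.0020). It passed in 18 of 18 alternatives, with differences of 1.36 to 1.86, and on slide 1 it was 1.81 (adjusted p = 0.0155). The second probe, A_55_P2056729 (72898677 to 72898736), measured 6.02, 5.83 and 5.55 in restricted mice and 4.68, 4.10 and 3.71 in control mice. Its ranges were also separate, with a 3.11-fold higher level (log2 difference 1.64 ± 0.28, limma adjusted p = 0.00595). Fitted on slide 1 alone, this second probe gave an adjusted p of 0.0539 with limma. The probes followed each other across the 6 arrays (r = 0.991), with control mouse 3 lowest at both.

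Igfbp3, the gene of the main carrier of IGF1 in blood, also rose (probe A_52_P253179, mm9 chromosome 11, 7106594 to 7106653). Restricted mice had -1.25, -1.22 and -1.10, against -3.03, -3.10 and -3.65 in control mice. The ranges were far apart and the restricted mice were close together, with means of -1.19 ± 0.08 in restricted mice and -3.26 ± 0.34 in control mice. The difference was 2.07 ± 0.21, a 4.19-fold higher level with a 95% interval of 2.96 to 5.94 (limma adjusted p = 0.000882), and 6.20% of all tested probes had a larger difference in size. It passed in 18 of 18 alternatives, from 1.35 with normexp background correction to 2.18, and on slide 1 it was 2.00 (adjusted p = 0.0113). In rat liver, Igfbp3 is known as a product of cells other than hepatocytes. In these bulk samples, a change in the number of cells of a type and a change in RNA per cell cannot be told apart. Of 13 markers of liver sinusoidal endothelium, 5 rose and 2 fell, against 14.4% and 12.8% of all gene names. Log2 of their summed signal overlapped between the diets, at 5.61 to 6.01 in restricted mice and 5.37 to 5.85 in control mice. Such a sum weighs the brightest marker most, here Kdr, which did not pass (0.48, limma adjusted p = 0.327). The 5 that rose, Oit3, Lyve1, Clec4g, Flt4 and Tek, had differences of 2.08, 1.97, 1.86, 1.32 and 1.04. The 2 that fell, Fcgr2b and Mrc1, had differences of -2.14 and -1.87. All 11 markers of Kupffer cells and macrophages fell, with sums of 5.30 to 5.83 in restricted mice and 7.84 to 8.24 in control mice. None of 12 hepatocyte markers passed, but 9 of them were saturated on at least 1 array, so their sums cannot show whether hepatocyte RNA differed. The 3 markers that were not saturated had sums of 7.57 to 8.20 in restricted mice and 7.40 to 7.57 in control mice, a comparison added after the data were seen. The part of these cell types in the Igfbp3 difference was not tested.

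The promoter windows of both genes that rose are shown for comparison, from RefSeq on GRCm38.p6. The window of Igfbp2 (chr1:72824230-72824529, plus strand) belongs to 1 of 2 annotated starts, and the capitals in it mark GC boxes (GGGCGG) that begin 113, 98 and 37 bases before the start. A GC box on either strand occurs in 35.7% of all windows. The window of Igfbp3 (chr11:7213874-7214173, minus strand) holds no match to a GC box, the STAT5 palindrome, the HNF1 core GTTAAT or either of the insulin response cores given with Igfbp1, and has no capitals. Both windows shown are rich in G and C, at 67.0% for Igfbp2 and 71.7% for Igfbp3, against a median of 52.7% over all windows. This is not particular to the genes that rose. Among genes that did not pass, Igf1r had 76.0%, Igfbp7 73.3% and Igfbp4 71.3%, and the others ran from 49.7% (Igfbp6) to 62.0% (an Igfals window). GC boxes also occur in the windows of Igf1r and Igfbp7 and in 2 of the 3 Igfals windows. The other Igfbp2 window holds no match to any of the motifs searched and has 57.3% G and C. No match says only that these letters are not in the window searched.
Igfbp2: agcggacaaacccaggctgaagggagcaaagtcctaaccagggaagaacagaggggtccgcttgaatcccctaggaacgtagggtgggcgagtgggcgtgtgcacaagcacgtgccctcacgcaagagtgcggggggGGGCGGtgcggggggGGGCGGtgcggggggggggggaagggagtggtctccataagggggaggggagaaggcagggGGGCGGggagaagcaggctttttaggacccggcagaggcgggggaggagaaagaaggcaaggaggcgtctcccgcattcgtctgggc
Igfbp3: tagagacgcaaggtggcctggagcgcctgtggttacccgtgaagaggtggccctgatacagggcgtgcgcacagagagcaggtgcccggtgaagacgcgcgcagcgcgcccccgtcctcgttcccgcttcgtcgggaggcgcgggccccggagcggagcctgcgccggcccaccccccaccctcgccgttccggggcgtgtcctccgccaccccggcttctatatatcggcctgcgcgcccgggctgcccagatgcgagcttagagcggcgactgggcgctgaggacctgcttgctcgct

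**Figure D3:**
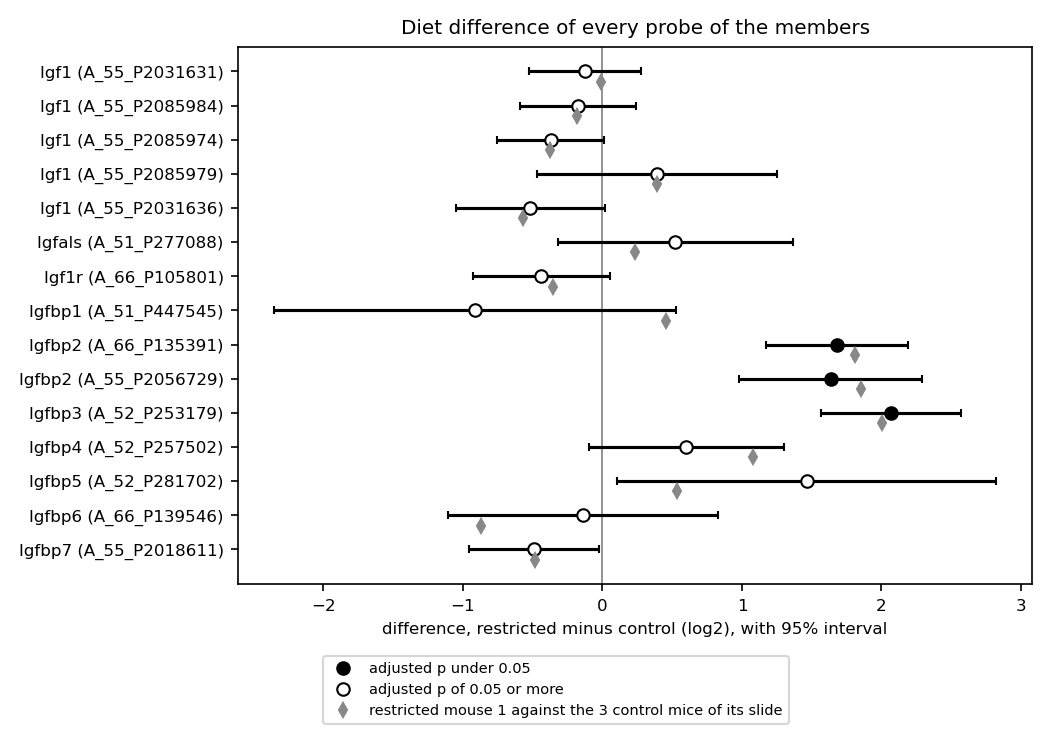
Difference between the diets, restricted minus control on the log2 scale, for each of the 15 probes, with its 95% interval from the fit over all probes, and a grey diamond for restricted mouse 1 minus the 3 control mice of its slide. Both Igfbp2 probes (1.68 and 1.64) and the Igfbp3 probe (2.07) passed at adjusted p under 0.05, and the widest interval, from -2.35 to 0.53, belongs to Igfbp1, whose probe was saturated on 3 arrays, so that its diamond has no readable sign.

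Igfbp1, the insulin-repressed binding protein of hepatocytes, did not pass the test, and its probe reached the top of the scanner's range. The probe (A_51_P447545, mm9 chromosome 11, 7102442 to 7102501) measured 7.28, 4.57 and 5.88 in restricted mice, against 6.74, 7.04 and 6.67 in control mice. It was saturated on the arrays of restricted mouse 1 and of control mice 1 and 2, so these readings are lower limits and have no order among themselves. Restricted mice 2 and 3, which were not saturated, lay below all control mice. Restricted mouse 1 was at least 6.54-fold above restricted mouse 2. The fitted difference, which rests on these limits, was -0.91 ± 0.61, with a 95% interval of -2.35 to 0.53 (limma adjusted p = 0.315). Without restricted mouse 1 it was -1.60 (limma adjusted p = 0.0372), so a single restricted array decided this call. On slide 1, where the sole restricted reading and 2 of the 3 control readings are saturated, no direction can be read. The labels do not say whether the mice were fed or fasted when killed, and Igfbp1 is known to respond to that within hours.

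Insulin is known to repress Igfbp1 through FOXO1 sites in its promoter, and the window is shown because the search found both cores of such sites in it. It lies at chr11:7197537-7197836 on the plus strand of GRCm38.p6, from RefSeq. From its 5′ end, capitals mark the core TGTTTTG read on the reverse strand, 108 to 102 bases before the start, then the core TATTTTG, 97 to 91 bases before the start, and the HNF1 core GTTAAT on the reverse strand, 56 to 51 bases before it. Both strands were searched for each motif. TGTTTTG occurs in 6.28% of all windows and TATTTTG in 4.36%, either of them in 10.2%, and both together in 155 of 32851 windows (0.472%). Of the 13 windows of the 10 genes, the one of Igfbp1 is the single window with either core. GTTAAT occurs in 7.10% of all windows. A match describes letters in the window and says nothing of binding in these livers.
Igfbp1: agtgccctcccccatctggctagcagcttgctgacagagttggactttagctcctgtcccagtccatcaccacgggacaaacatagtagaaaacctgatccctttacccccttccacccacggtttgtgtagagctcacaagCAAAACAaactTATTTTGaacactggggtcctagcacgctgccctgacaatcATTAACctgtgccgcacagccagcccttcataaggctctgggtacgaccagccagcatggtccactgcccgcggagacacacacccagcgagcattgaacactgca

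**Figure D4:**
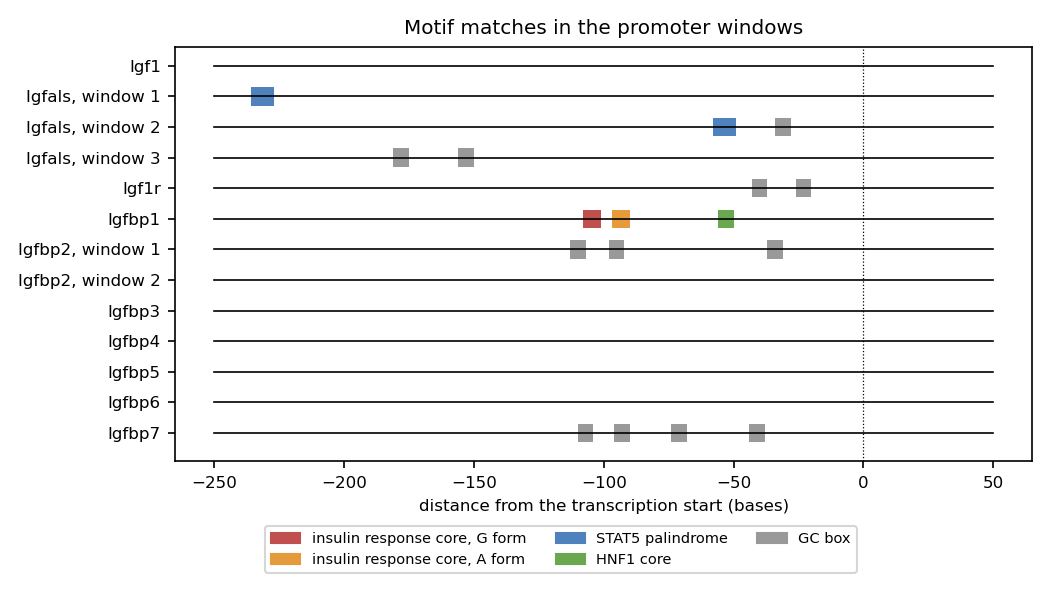
Positions of motif matches in the 13 RefSeq promoter windows of the 10 genes, in bases from the transcription start, with a colour per motif. The insulin response cores appear in the Igfbp1 window alone, between 108 and 91 bases before the start, and the STAT5 palindrome in windows of Igfals alone.

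Igfbp4, whose protein is a carrier that the protease PAPPA cleaves, did not pass the test. Its probe (A_52_P257502, mm9 chromosome 11, 98913334 to 98913393) measured 3.32, 2.85 and 2.36 in restricted mice and 2.60, 1.91 and 2.22 in control mice. The ranges overlapped at a difference of 0.60 ± 0.30 (limma adjusted p = 0.180), and on slide 1 the difference was 1.08 (adjusted p = 0.103). Igfbp5, another gene of a protein that can form the ternary complex, had a wide spread. Its probe (A_52_P281702, mm9 chromosome 1, 72904829 to 72904888) measured -2.40, -1.01 and -0.99 in restricted mice and -3.79, -3.17 and -1.84 in control mice. Restricted mouse 1 fell inside the control range. The difference was 1.46 ± 0.58 with a 95% interval of 0.11 to 2.82 (limma adjusted p = 0.105). Without control mouse 3 it was 2.01 (limma adjusted p = 0.0278), with array weights 1.93 (adjusted p = 0.0098), and on slide 1 it was 0.53 (adjusted p = 0.674).

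Igfbp6, which encodes a binding protein that prefers IGF2, showed no direction. Its probe (A_66_P139546, mm9 chromosome 15, 101979852 to 101979911) measured -3.91, -3.33 and -2.31 in restricted mice and -2.66, -3.14 and -3.33 in control mice. The restricted range enclosed the control range, and the difference was -0.14 ± 0.41 (limma adjusted p = 0.833). On slide 1 it was -0.87 (adjusted p = 0.280). Igfbp7 encodes a related secreted protein of vessel walls with low affinity for IGF1. Its probe (A_55_P2018611, mm9 chromosome 5, 77778271 to 77778330) measured -2.05, -2.02 and -2.11 in restricted mice and -1.80, -1.24 and -1.67 in control mice. All restricted values lay below all control values. The difference was -0.49 ± 0.20 with a 95% interval of -0.96 to -0.03, which did not pass after adjustment (limma adjusted p = 0.111). It passed with array weights alone among 18 alternatives, at -0.61 (adjusted p = 0.0327), and on slide 1 it was -0.48 (adjusted p = 0.355). Of 11 fibroblast and myofibroblast markers, 8 fell and none rose, with sums of 5.55 to 6.25 in restricted mice and 6.85 to 7.24 in control mice. Of 10 stellate cell markers, 3 fell and none rose, with overlapping sums of 2.88 to 3.49 in restricted mice and 3.31 to 3.77 in control mice. Over all gene names, 12.8% fell and 14.4% rose. The part of fibroblasts, myofibroblasts and stellate cells in the values of Igfbp5, Igfbp6 and Igfbp7 was not tested.

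The 10 genes include 2 pairs of neighbours. Igfbp1 and Igfbp3 lie on chromosome 11 on opposite strands, with their probes 4092 bases apart on mm9 and no other RefSeq gene between them. Igfbp2 and Igfbp5 lie in the same way on chromosome 1, with their probes 5956 bases apart and no other RefSeq gene between. Within each pair the gene that rose, Igfbp3 or Igfbp2, stood beside one that did not pass, Igfbp1 at -0.91 or Igfbp5 at 1.46. Igfbp2 and Igfbp3, on different chromosomes, followed each other across the 6 arrays with r = 0.99, and with r = 0.72 after each diet's mean was subtracted. After that subtraction, all pairs of the 10 genes ran from -0.90 (Igf1r with Igfbp5) to 0.93 (Igf1r with Igfbp2), so 0.72 was not the strongest. As a description of 6 arrays that share the diet contrast, such coefficients cannot separate the diet from anything else that moved with it.

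The genes whose signal was most like that of Igf1, Igfals, Igfbp1 and Igfbp2 were found by Pearson correlation over the 6 arrays among 13890 gene symbols. For Igfbp2 they were Cisd1 (r = 0.999), which encodes a protein of the outer mitochondrial membrane, Atraid (0.997) and Hpd (0.997), which encodes an enzyme of tyrosine breakdown. Igfbp2 had 602 such genes with r above 0.95, and Cisd1 itself rose, with a log2 difference of 1.67 (limma adjusted p = 0.00161). The genes most like Igfbp1 were Atf4 (r = 0.989), which encodes a transcription factor of the amino acid and stress response, Emd (0.986) and Prdm2 (0.977), with 12 genes above 0.95, but the Igfbp1 probe was saturated on 3 of the 6 arrays, so this order is uncertain. Igf1 came closest to Cd4 (0.979), Mmp27 (0.978) and Cdk2ap2 (0.968), and Igfals to Apod (0.989), Snrnp27 (0.983) and Cables1 (0.970), with 5 and 6 genes above 0.95. These nearest genes of Igf1, Igfals and Igfbp1 did not pass the diet test. Genes chosen by likeness over these same arrays tend to share the pattern of the member between the diets. Neither that outcome nor the call of Cisd1 is therefore a separate result.

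Around the 10 genes, 74 genes of the IGF system were examined in 7 lists, of which 64 could be tested. Among these 64, 7 rose and 14 fell, 32.8% in all, against 27.2% of all gene names, and their median difference was 0.09. Of 6 other ligands and receptors, 4 were tested and 2 rose. Igf2r, the receptor that clears IGF2, measured 1.48, 1.44 and 1.55 in restricted mice and 0.82, 0.67 and 0.97 in control mice, a difference of 0.67 ± 0.17 (limma adjusted p = 0.0247). Igf2r lost its call in 7 of 18 alternatives. Ins1, a pancreatic insulin gene, rose by 0.71 ± 0.21 (limma adjusted p = 0.0444) at a low signal of -4.66 to -4.05 in restricted mice and -5.22 to -5.06 in control mice, and lost its call in 11. The insulin receptor gene Insr did not pass, at 0.59 ± 0.22 (limma adjusted p = 0.0846), but passed in 4 of 18 alternatives, with differences of 0.44 to 0.75 over all of them. Igf2 was not well above background on any array and was not tested.

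Of 10 tested proteases of IGF binding proteins and their inhibitors, 1 fell and none rose (10% in all, against 27.2% of all gene names). That gene was Timp1, a metalloprotease inhibitor, which measured -4.15, -3.10 and -3.37 in restricted mice and 0.42, 0.40 and 0.18 in control mice, with a difference of -3.87 ± 0.29 (limma adjusted p = 0.000349). Among 6 tested proteins related to the binding proteins, 3 fell and 1 rose (66.7% in all, against 27.2% of all gene names). Kazald1 had a difference of -3.13 ± 0.31, and Wisp1 (CCN4), a matrix-associated protein, one of -1.63 ± 0.44 with 2 of 3 restricted arrays well above background. Wisp2 (CCN5) was not well above background on any restricted array and was at least 4.09-fold lower there. Esm1, an endothelial proteoglycan gene, rose by 1.73 ± 0.50 and lost its call in 8 of 18 alternatives. Of the 2 tested IGF2 mRNA-binding proteins, Igf2bp3 was called, at least 2.13-fold higher in restricted mice, and it was not well above background on any control array. With normexp background correction, whose offset of 50 shrinks differences of dim probes, the differences were -0.27 for Wisp1 (limma adjusted p = 0.325), -0.51 for Wisp2 (0.155) and 0.51 for Igf2bp3 (0.0560), and none of these passed. Wisp1 lost its call in 6 of 17 alternatives. Beside these genes, the fibroblast markers were lower as given with Igfbp7. Of 8 bile duct markers 3 fell, against 12.8% of all gene names, with sums of 0.95 to 1.79 in restricted mice and 2.56 to 2.81 in control mice. All 6 markers of dividing cells fell, with sums of -0.74 to 0.05 in restricted mice and 2.01 to 2.61 in control mice. The part of these cells in the changes was not tested.

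Downstream of the receptors, 4 of 18 tested genes of PI3K, AKT and FOXO signalling fell and 1 rose (27.8% in all, against 27.2% of all gene names). Inpp5d, which encodes the lipid phosphatase SHIP1 of blood cells, measured -1.45, -1.10 and -1.28 in restricted mice and 1.32, 1.85 and 1.00 in control mice, a difference of -2.66 ± 0.25 (limma adjusted p = 0.000665). Pik3cd, the leukocyte PI3K subunit, had a difference of -2.50 ± 0.24 (limma adjusted p = 0.000721). Both genes passed in all 18 alternatives, and the macrophage markers whose sums are given with Igfbp3 moved with them in the same mice. Of 6 tested T and B lymphocyte markers, 3 fell and none rose, against 12.8% and 14.4% of all gene names. Their sums overlapped, at 1.40 to 2.15 in restricted mice and 1.45 to 2.09 in control mice. Such sums weigh the brightest marker most, here Cd3e, which did not pass (0.32, limma adjusted p = 0.365). The markers that fell, Cd3d, Cd3g and Cd2, had differences of -1.33, -1.46 and -2.37. The part of these cells in the differences of Inpp5d and Pik3cd was not tested. Akt1 had a difference of -0.74 ± 0.16 and Pdpk1, the kinase that activates AKT, one of 0.64 ± 0.18, each losing its call in some alternatives (5 and 10 of 18). Of 10 tested adaptor genes, 1 rose and 1 fell (20.0% in all, against 27.2% of all gene names). Irs4 rose by 1.47 ± 0.20 and Grb10, an inhibitory adaptor, had a difference of -1.38 ± 0.29. Grb10 lost its call in 4 of 18 alternatives, with -0.75 on slide 1 (adjusted p = 0.118) and -0.54 with normexp background correction (adjusted p = 0.0781). The main hepatic adaptors did not pass, with 1.19 ± 0.50 for Irs1 (limma adjusted p = 0.122) and -0.39 ± 0.57 for Irs2 (limma adjusted p = 0.654). Irs1 passed in 3 of 18 alternatives and Irs2 in none, and Irs2 ranged from 2.36 to 4.61 among control mice.

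Of 14 tested genes of the growth hormone pathway that drives Igf1 in liver, 5 fell and 1 rose (42.9% in all, against 27.2% of all gene names). Ghr, the growth hormone receptor gene, measured 4.54, 4.24 and 4.58 in restricted mice and 3.53, 3.71 and 3.69 in control mice, a difference of 0.81 ± 0.18 (limma adjusted p = 0.0155). The ranges were separate, and the call was lost in 4 alternatives, slide as a block among them (adjusted p = 0.0760). Socs2, a feedback inhibitor that growth hormone induces, measured 1.49, 1.09 and 1.01 in restricted mice and 2.17, 2.44 and 2.24 in control mice, with a difference of -1.09 ± 0.20 (limma adjusted p = 0.0075) and an adjusted p of 0.0884 with slide as a block. Socs1 had a difference of -2.75 ± 0.46, Ptpn1, a phosphatase that acts on JAK2, one of -2.07 ± 0.31, and the kinase gene Jak2 one of -1.15 ± 0.18. Socs3, named here after its values were seen, had a difference of -1.81 ± 0.42 (limma adjusted p = 0.0201). Cish, another inhibitor that growth hormone induces and also named after its values were seen, had a difference of -0.03 ± 0.30 (limma adjusted p = 0.947). The macrophage markers (11 of 11 lower, median difference -2.24) and the markers of dividing cells (6 of 6 lower, median difference -2.73) moved in the same mice as the called inhibitors and Jak2, and their part was not tested. Stat5b, the transcription factor through which growth hormone acts on Igf1, did not pass, at 0.09 ± 0.22 (limma adjusted p = 0.802). Beside these values, the product genes of the pathway, Igf1 and Igfals, had no called difference at any of their 6 probes.

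**Figure D5:**
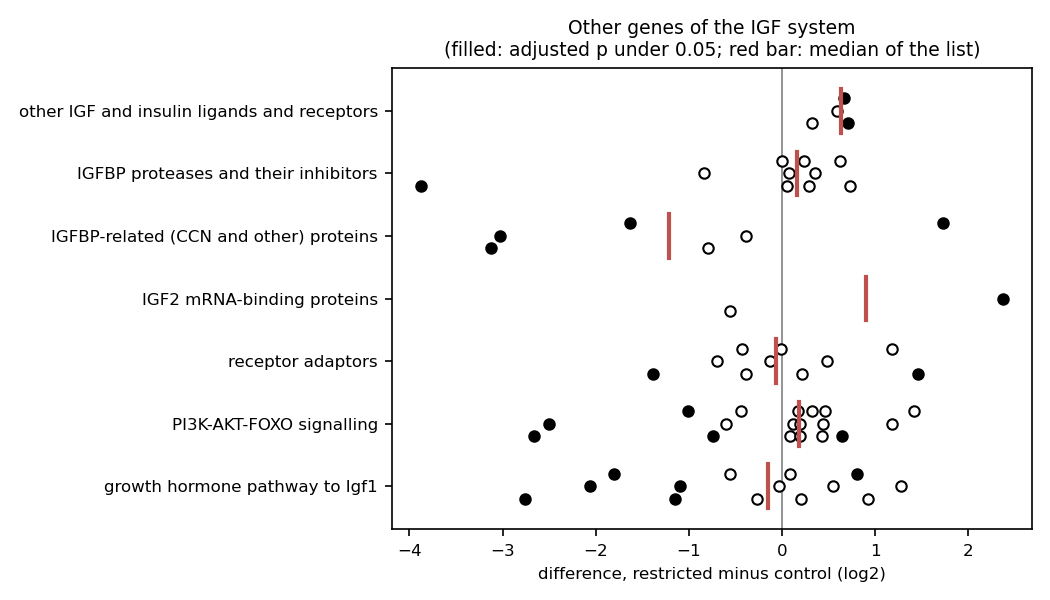
Difference between the diets, restricted minus control on the log2 scale, for the 64 tested genes of the 7 lists, with a point per gene (filled where adjusted p was under 0.05) and a red bar at the median of each list. The list medians run from -1.21 for the proteins related to the binding proteins to 0.91 for the IGF2 mRNA-binding proteins, which hold 2 tested genes.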

How the data were processed

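The intensity values analysed were the processed signals in the deposited scanner files, produced with Agilent Feature Extraction 10.7.3.1 from array design 026655 per the file headers, although version 9.3.2.1 is named in the submitters' processing notes. Per the labels' protocols, 0.2 μg of total RNA from each mouse was labelled with a single dye. Probe positions are those of the files, on mm9, with no annotation of exons used here.

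After removal of control spots and of spots marked as outliers (127 to 251 of 43020 spots per array), signals were put on the log2 scale, averaged over repeat spots and reduced by the 75th percentile of their array. Of 39429 probes, 24234 passed the filter, being well above background wherever measured in at least 1 diet, and were tested with limma's moderated test over 6 arrays, without covariates, with Benjamini-Hochberg adjustment over all of them. The call was made at an adjusted p under 0.05. An exact permutation test of 3 against 3 mice cannot give a two-sided p below 0.1 and was not used. Marker levels are log2 of the summed scaled signals. Where no array of a group was well above background, a fold is given as a bound, against the dim probe or the lowest signal well above background, whichever is higher. The script was tested on simulated data.

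The genes, lists and tests were chosen with earlier results of these data known. Every probe of the 10 genes is given. Of each list, up to 4 called genes with the smallest p are named, or 2 where none was called, and Igf2, Insr, Igf2r, Ghr, Socs2, Stat5b, Irs1 and Irs2 always. The values of 1 called gene of the lists are not reported here. The nearest genes are the 3 gene symbols with the highest correlation. Whether mouse numbers pair the mice was checked: the deviations of same-numbered mice correlated at 0.386, 0.002 and 0.484, so the numbers were not taken as pairs. Alternatives were the deposited table, normexp background correction (offset 50), median scaling, quantile normalization, a filter on all arrays, no filter, array weights, trend and robust moderation, slide or mouse number as a block, slide 1 alone, the brightest probe per gene, and leaving out each mouse. The deposited table holds the same processed signals on the linear scale, within 0.1% for 99.67% to 99.77% of probes, with column medians of 27.5 to 52.1. Promoter sequences are those of RefSeq on GRCm38.p6, in which all 10 genes had a window. Fits were run with limma 3.58.1 in R 4.3.3, with tables read by data.table (version 1.17.8).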

Additional observations from a re-analysis of the deposited data

How the results depend on the processing

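Igfbp2, at its brighter probe, and Igfbp3 kept their direction and their call in 18 of 18 alternatives. Of the comparisons of the 15 probes with an alternative, 251 stayed on the same side of the threshold with the same direction, 8 gained a call, 1 lost one and 5 turned their sign. Those that turned were Igfbp1 with slide as a block (0.46) and on slide 1 alone (0.46), where saturated readings leave the sign to the array scaling, and Igfbp6 with normexp (0.11), without restricted mouse 1 (0.23) and without control mouse 1 (0.05). Among the named genes of the lists, 62 comparisons lost a call and 4 turned their sign: Stat5b with quantile normalization (-0.087), with array weights (-0.072) and without restricted mouse 1 (-0.11), and Irs2 without control mouse 2 (0.081). Over the fits that leave out a mouse, differences ran from -0.58 to 0.23 for Igfbp6, from -0.11 to 0.19 for Stat5b and from -1.05 to 0.081 for Irs2. The 10 genes had 2 calls higher and none lower; array weights gave 3 higher and 2 lower. Leaving out each mouse gave 2 to 3 higher and 0 to 1 lower, the 1 lower being Igfbp1 without restricted mouse 1 and Igf1r without control mouse 3. Over all probes, 3414 were called higher and 3042 lower. Normexp gave 1967 lower, array weights 5825 higher, slide as a block 1312 higher, and slide 1 alone 977 higher and 1910 lower. Leaving out each mouse gave 1855 to 3966 higher and 2112 to 3153 lower. Over the lists, with 7 higher and 14 lower, normexp gave 4 higher and array weights 15 higher. Slide as a block gave 2 higher and 9 lower, and slide 1 alone 1 higher and 7 lower. Leaving out each mouse gave 2 to 9 higher and 9 to 14 lower. Leaving out a mouse and fitting slide 1 alone reduce the samples in the fit, and the cause of the other changes was not tested. With the mouse number as a replicate block, a pairing that the check did not bear out, the 10 genes had 3 calls higher, Igfbp5 (1.46, limma adjusted p = 0.0149) being the added one, and all probes had 4448 higher and 3632 lower. The median difference of all probes was 0.08 with quantile normalization and 0.25 with no background filter, against 0.12. Only restricted mouse 1 shares a slide with the control mice, so diet and slide are told apart by that array alone. Igf1r, Igfbp3, Igfbp5, Igfbp6 and Igfbp7 were read below the array's 75th percentile, and 3 Igfbp1 readings and 9 of 12 hepatocyte markers were saturated.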
